A study of Mus musculus with 24 samples.

Results

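Lrrc14b, Pcp4l1, Pianp, Clic5 and Mamdc2, 5 little-studied genes, were followed across OGT knockout (KO) and wild-type (WT) mouse bone marrow-derived macrophages. They were picked by symbol for large KO over WT differences in at least 1 of 3 states, so their KO and WT values are given as a description, with no test. All 5 of the 5 symbols were found among the 24421 gene rows of the count files, and all 5 were among the 14693 genes kept by a filter on low counts. All 5 were also kept by that filter without the LPS libraries, although Clic5 stayed at or below 0.343 counts per 1e+06 counts (CPM) in the other states.

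The libraries hold total RNA of macrophages grown from the bone marrow of C57BL/6J mice aged 12 weeks. Each of 6 groups has 4 libraries: OGT KO and WT cells were left unstimulated (M0), stimulated for 12 hours with 100 ng/ml of LPS (labelled M1), or stimulated for 12 hours with 10 ng/ml of IL-4 (labelled M2). LPS is a bacterial cell wall component that sets off the inflammatory response of macrophages, and IL-4 is the cytokine that sets off their alternative activation. The means of deleting Ogt, such as a Cre driver, was not given in the sources used here. A number in each label names the library, from 5 to 8 in KO and from 1 to 4 in WT, and nothing in the labels ties a library to its own animal or culture. The p-values therefore measure the spread between these libraries, which may be technical.

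OGT places a single N-acetylglucosamine sugar on serines and threonines of nuclear and cytosolic proteins. The 5 genes belong to different families. PCP4L1 is a small neuronal protein related to the calmodulin-binding protein PCP4, and CLIC5 is a chloride intracellular channel family protein that sits with ezrin under the membrane of hair cell stereocilia and kidney podocytes. PIANP is a membrane protein known mainly from the brain, where it was described as a ligand of the immune receptor PILRA and as a partner of the GABA-B receptor. MAMDC2 is a secreted proteoglycan with MAM domains, and LRRC14B is a leucine-rich repeat protein known mainly as a transcript of heart and skeletal muscle.

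Depth set the precision of each value. The sum of gene counts lay between 63429271 and 94942464 in 21 libraries, and between 172771 and 209368 in 3 LPS libraries (KO 7, WT 1 and WT 2). A count of 0 allows up to 3 counts, which is 0.0303 to 0.055 CPM in a deep library and 15.5 to 17.9 CPM in a shallow one. In the shallow libraries the 5 genes held 0 to 8 counts, and 11 of those 15 values were 0, so nearly all information on the LPS state came from 3 KO and 2 WT libraries. Ogt itself was lower in KO by 0.49 ± 0.057 (SE) on the log2 scale in M0, with log2 fold changes of -0.63 ± 0.072 in LPS and -0.71 ± 0.057 in IL-4, and its KO and WT values did not overlap in any state. Of 10 macrophage markers, Lyz2 reached the highest level in a deep library, 9855 CPM, and Adgre1 the next, 2417 CPM. Sums over these markers may therefore lean on Lyz2. The summed level of the 10 was 8036 to 10060 CPM in KO M0 and 12995 to 14511 CPM in WT M0. It was 9924 to 10764 CPM in deep KO LPS and 16088 to 16146 CPM in deep WT LPS libraries, and 6887 to 7418 CPM in KO IL-4 and 7871 to 8338 CPM in WT IL-4. By edgeR's quasi-likelihood test (Benjamini-Hochberg adjusted p under 0.05), 0, 3 and 1 of these markers were called higher and 5, 6 and 2 lower in KO in M0, LPS and IL-4. Over all genes, 22.3%, 30.9% and 36.1% were called in either direction in those states.

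RefSeq promoter windows (GRCm38.p6, 250 bases before to 50 bases after a transcript start) were found for 4 of the 5 genes, all but Mamdc2. The windows of Lrrc14b (chr13:74363951-74364250, minus strand), Pcp4l1 (chr1:171196219-171196518, minus strand) and Pianp (chr6:124996470-124996769, plus strand, the first of 3) are shown because these genes fell with LPS and IL-4. The window of Clic5 (chr17:44188322-44188621, plus strand) is shown because Clic5 rose with LPS. It is the only Clic5 window found, and it lies inside the gene's RefSeq span, which begins at 44134762. That outer start had no window. Each printed window reads 5′ to 3′ on the gene's strand. Capitals mark matches on either strand to 8 motifs. These were the E-box as CACGTG, the AP-1 site as TGANTCA, the RUNX site as TGTGGT and the PU.1 site as GAGGAA. The others were the CRE motif as TGACGT, the TATA box as TATAAA, the CCAAT box, and the STAT site as TTC and GAA with 4 bases between them. No matches overlapped each other in these windows.
Lrrc14b: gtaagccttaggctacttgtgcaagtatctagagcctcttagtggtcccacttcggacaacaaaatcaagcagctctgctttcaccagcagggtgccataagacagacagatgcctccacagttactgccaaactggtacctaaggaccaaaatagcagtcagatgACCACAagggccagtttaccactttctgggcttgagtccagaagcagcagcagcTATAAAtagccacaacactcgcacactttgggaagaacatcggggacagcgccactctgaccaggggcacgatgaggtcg
Pcp4l1: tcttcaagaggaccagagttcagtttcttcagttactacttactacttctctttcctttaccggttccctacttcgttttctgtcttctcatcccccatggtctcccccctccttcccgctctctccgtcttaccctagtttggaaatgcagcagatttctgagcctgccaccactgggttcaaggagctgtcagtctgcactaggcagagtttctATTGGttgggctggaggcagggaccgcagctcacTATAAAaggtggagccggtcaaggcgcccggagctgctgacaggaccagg
Pianp: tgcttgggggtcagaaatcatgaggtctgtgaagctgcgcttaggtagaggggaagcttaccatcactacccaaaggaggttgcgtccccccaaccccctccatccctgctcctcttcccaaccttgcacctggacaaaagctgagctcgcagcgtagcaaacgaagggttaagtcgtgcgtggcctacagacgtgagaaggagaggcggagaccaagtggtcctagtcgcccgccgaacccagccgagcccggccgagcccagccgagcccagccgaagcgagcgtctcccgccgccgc
Clic5: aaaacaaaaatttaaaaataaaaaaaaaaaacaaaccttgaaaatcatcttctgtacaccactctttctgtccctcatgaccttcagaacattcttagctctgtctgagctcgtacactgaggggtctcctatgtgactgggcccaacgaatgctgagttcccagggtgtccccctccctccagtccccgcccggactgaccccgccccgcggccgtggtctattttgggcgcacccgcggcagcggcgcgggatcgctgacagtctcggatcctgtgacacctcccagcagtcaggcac
Lrrc14b and Pcp4l1 shared TATAAA, which 13.6% of 32851 promoter windows hold. It lay at bases -30 to -25 of the annotated start in Lrrc14b and at bases 1 to 6 in Pcp4l1, counting the first transcribed base as 1. Lrrc14b also held a RUNX match, a motif in 16.8% of windows. Pcp4l1 held a CCAAT match, a motif in 37.4% of windows. None of the 8 motifs was found in the windows printed for Pianp and Clic5. The other 2 windows of Pianp held PU.1 matches, a motif in 28.3% of windows, and 1 of them held a CCAAT match. The printed Pianp window held 22 CG dinucleotides and the Clic5 window 16, against 8 in Pcp4l1, 6 in Lrrc14b and a median of 7 over all windows. The other 2 windows of Pianp held 6 each, and which start these cells use was not tested.

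In the M0 state, 4 of the 5 genes had KO values that all lay above all WT values, and Clic5 did not. Over all genes tested, 13.5% showed that pattern in M0, and the choice of the genes used this contrast. In IL-4 the count was again 4 of 5, beside 17.3% of all genes. After LPS it was 2 of 5, Clic5 and Mamdc2, beside 8.04% of all genes. For Mamdc2 the shallow libraries cannot show a separation. Their 3-count limits of 15.5 to 17.9 CPM lie above all its KO LPS values, of which the highest was 5.98 CPM, in shallow KO 7. Pcp4l1 and Pianp were kept out of the LPS count by 0 counts in the shallow KO 7 library, and their deep KO libraries all lay above their deep WT libraries.

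**Figure D1:**
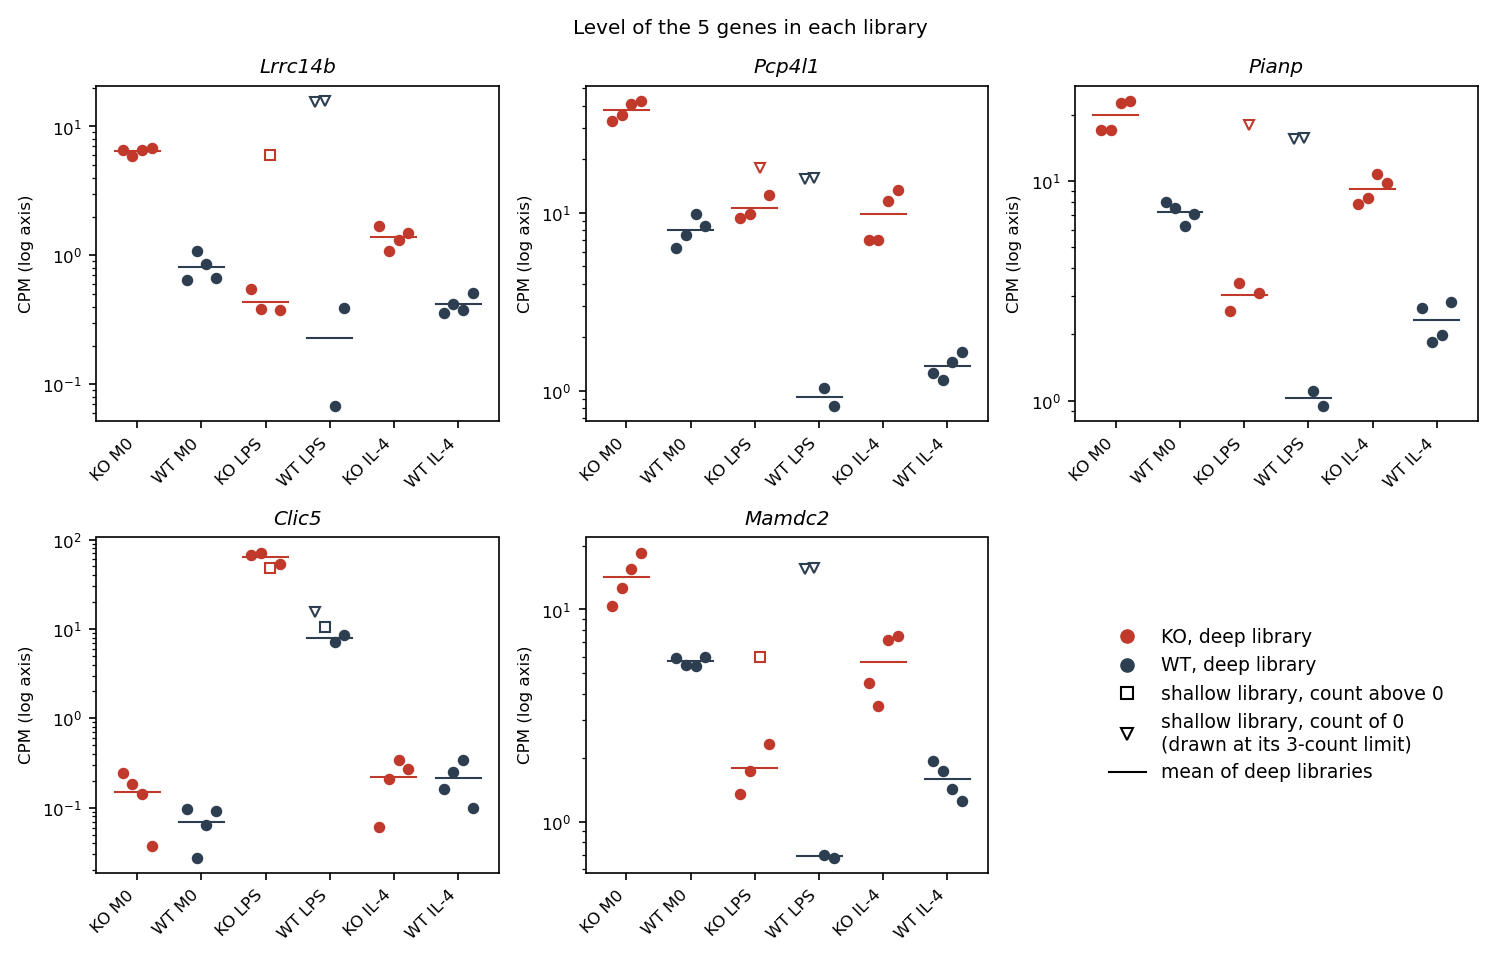
CPM on a log axis for each library, by group, with 1 panel per gene. Filled circles are deep libraries, open squares are shallow libraries with a count above 0, open triangles are shallow libraries at 0 drawn at their 3-count limit, and lines are means of the deep libraries. Lrrc14b, Pcp4l1, Pianp and Mamdc2 are highest in KO M0, and Clic5 is highest in KO LPS, at 52.7 to 71.3 CPM in deep libraries.

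Lrrc14b (ENSMUSG00000021579.4, chromosome 13, 74359582 to 74364000, minus strand) was highest in resting KO cells. It read 6.57, 5.94, 6.56 and 6.76 CPM in KO M0, against 0.649, 1.08, 0.854 and 0.669 CPM in WT M0. With IL-4 the KO libraries held 1.68, 1.09, 1.31 and 1.5 CPM and the WT libraries 0.357, 0.42, 0.378 and 0.514 CPM. After LPS the deep KO libraries held 0.545, 0.385 and 0.374 CPM, against 0.0678 and 0.392 CPM in the deep WT libraries. The KO and WT ranges were far apart in M0, apart in IL-4, and overlapped in LPS. On the log2 scale KO exceeded WT by 2.99 ± 0.22 (SE) in M0, rank 26 of 14693 genes, by 1.75 ± 0.24 in IL-4 and by 0.97 ± 0.42 in LPS. A high rank was likely from the start, because the genes were picked for large differences. The LPS value rests on 4 counts in WT LPS 3 and 22 counts in WT LPS 4. It was 0.21 without WT LPS 3 and 2.70 without WT LPS 4.

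Both stimuli lowered Lrrc14b. In KO the log2 fold change was -3.85 ± 0.28 with LPS (edgeR quasi-likelihood, adjusted p = 3.22e-12) and -2.21 ± 0.21 with IL-4 (adjusted p = 3.6e-09). In WT it was -1.83 ± 0.38 with LPS (edgeR, adjusted p = 0.000162) and -0.96 ± 0.25 with IL-4 (edgeR, adjusted p = 0.002). DESeq2 did not call these WT responses (adjusted p = 0.0634 for LPS and 0.162 for IL-4), and the LPS value in WT was -1.05 without WT LPS 3 and -3.54 without WT LPS 4. LPS levels were below IL-4 levels in KO (-1.65 ± 0.28, edgeR, adjusted p = 1.03e-05) and not called in WT (-0.87 ± 0.40, adjusted p = 0.059). In the GENCODE annotation of GRCm38, all 2755 exonic bases of Lrrc14b lie inside exons of Ccdc127, a coiled-coil protein gene on the opposite strand. The strand setting of the counting was not given in the sources used here. Reads of the overlapping genes may not have been told apart, and the Lrrc14b counts are uncertain. Ccdc127 held 44.2, 43.1, 47.6 and 44.5 CPM in KO M0, against 36.5, 37.7, 37.9 and 38.2 CPM in WT M0. Its KO over WT log2 fold change was 0.25 ± 0.055 (edgeR quasi-likelihood, adjusted p = 0.00155) in M0, 0.10 ± 0.071 (adjusted p = 0.291) in LPS and 0.13 ± 0.055 (adjusted p = 0.0702) in IL-4.

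Pcp4l1 (ENSMUSG00000038370.6, chromosome 1, 171173264 to 171196268, minus strand) was the most abundant of the 5 per kilobase of exon in resting cells. It held 32.7, 35.5, 40.6 and 42.3 CPM in KO M0, against 6.31, 7.49, 9.8 and 8.46 CPM in WT M0. With IL-4 it held 7.06, 7.04, 11.7 and 13.4 CPM in KO and 1.26, 1.15, 1.44 and 1.64 CPM in WT. After LPS it held 9.35, 9.83 and 12.6 CPM in deep KO libraries, against 1.03 and 0.82 CPM in deep WT libraries, and 0 counts in all 3 shallow ones. Every deep KO library lay above every deep WT library of its state, and stimulated KO cells overlapped or exceeded the range of resting WT cells. The log2 difference of KO over WT was 2.23 ± 0.17 (SE) in M0, 3.51 ± 0.30 in LPS and 2.84 ± 0.20 in IL-4, which were ranks 64, 47 and 30 of 14693 genes. As for Lrrc14b, the choice of the genes favoured such ranks.

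Pcp4l1 fell with LPS by 1.84 ± 0.19 on the log2 scale in KO (edgeR quasi-likelihood, adjusted p = 2.21e-09) and by 3.12 ± 0.29 in WT (adjusted p = 5.74e-10). With IL-4 it fell by 1.95 ± 0.17 in KO (edgeR, adjusted p = 4.23e-10) and by 2.55 ± 0.20 in WT (adjusted p = 3.83e-11). LPS set against IL-4 gave a log2 difference of 0.11 ± 0.18 in KO (edgeR, adjusted p = 0.623) and -0.57 ± 0.32 in WT (adjusted p = 0.121), and neither was called. The KO difference was 0.45 (edgeR, adjusted p = 0.00894) without KO 7 and 8. The WT difference was -0.56 with only the 2 groups in the fit, where it passed the threshold (edgeR, adjusted p = 0.0334).

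Pianp (ENSMUSG00000030329.11, chromosome 6, 124996720 to 125003096, plus strand) held 17, 17, 22.5 and 23 CPM in KO M0, against 8.03, 7.5, 6.26 and 7.03 CPM in WT M0. With IL-4 it held 7.84, 8.38, 10.8 and 9.74 CPM in the KO libraries, against 2.65, 1.85, 1.98 and 2.81 CPM in the WT libraries. The deep LPS libraries held 2.56, 3.43 and 3.08 CPM in KO and 1.1 and 0.945 CPM in WT. KO was above WT in each state among the deep libraries, by 1.47 ± 0.13 (SE) on the log2 scale in M0, 1.56 ± 0.23 in LPS and 1.98 ± 0.14 in IL-4. LPS lowered Pianp in both genotypes, with log2 fold changes of -2.72 ± 0.16 in KO (edgeR quasi-likelihood, adjusted p = 3.42e-14) and -2.82 ± 0.21 in WT (adjusted p = 1.01e-11). IL-4 lowered it by less, -1.11 ± 0.13 in KO (edgeR, adjusted p = 7.98e-08) and -1.63 ± 0.14 in WT (adjusted p = 3.02e-10). LPS levels were below IL-4 levels in KO (-1.61 ± 0.16, edgeR, adjusted p = 8.92e-10) and in WT (-1.18 ± 0.22, adjusted p = 3.37e-05).

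Mamdc2 (ENSMUSG00000033207.7, chromosome 19, 23302609 to 23448497, minus strand) followed Pianp closely. It held 10.4, 12.7, 15.5 and 18.5 CPM in KO M0, against 5.88, 5.48, 5.4 and 6 CPM in WT M0. With IL-4 it held 4.51, 3.52, 7.17 and 7.48 CPM in KO and 1.94, 1.74, 1.42 and 1.26 CPM in WT, and after LPS the deep libraries held 1.35, 1.72 and 2.31 CPM in KO and 0.695 and 0.677 CPM in WT. The WT libraries of a state lay close together, while the KO libraries spread over a wider range above them. KO exceeded WT on the log2 scale by 1.32 ± 0.19 (SE) in M0, 1.40 ± 0.34 in LPS and 1.84 ± 0.21 in IL-4. Without KO 7 and 8 the M0 and IL-4 differences were 1.01 and 1.35. LPS lowered Mamdc2, with log2 fold changes of -2.98 ± 0.24 in KO (edgeR quasi-likelihood, adjusted p = 2.37e-11) and -3.06 ± 0.32 in WT (adjusted p = 5.09e-09). With IL-4 the log2 fold changes were -1.33 ± 0.19 in KO (edgeR, adjusted p = 2.16e-06) and -1.84 ± 0.21 in WT (adjusted p = 3.53e-08). As for Pianp, LPS levels were below IL-4 levels in KO (-1.65 ± 0.23, edgeR, adjusted p = 7.18e-07) and in WT (-1.22 ± 0.33, adjusted p = 0.00225).

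Clic5 (ENSMUSG00000023959.9, chromosome 17, 44134762 to 44280169, plus strand) was nearly silent without LPS. Its counts were 24, 18, 10 and 3 in KO M0, against 8, 2, 6 and 8 in WT M0, which is at most 0.242 CPM. After LPS the deep KO libraries held 4098, 3885 and 3101 counts (67.7, 71.3 and 52.7 CPM), against 426 and 475 counts (7.22 and 8.47 CPM) in the deep WT libraries. The shallow KO library held 8 counts (47.8 CPM), and the shallow WT libraries held 0 and 2 counts. All KO LPS libraries lay above all WT LPS libraries, and the genotypes overlapped in M0 and in IL-4. The log2 difference of KO over WT was 3.02 ± 0.24 (SE) in LPS, rank 63 of 14693 genes. It was 1.12 ± 0.55 in M0 and -0.016 ± 0.41 in IL-4, and the M0 value was 0.23 without KO 5 and 6. The choice of the genes favoured a high rank here too.

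LPS raised Clic5 in both genotypes. The log2 fold change over M0 was 8.64 ± 0.27 in KO (edgeR quasi-likelihood, adjusted p = 5.79e-20) and 6.73 ± 0.33 in WT (adjusted p = 1.64e-15), from resting levels of 3 to 24 counts in KO and 2 to 8 counts in WT. LPS over IL-4 gave 8.18 ± 0.26 in KO (edgeR, adjusted p = 7.51e-20) and 5.15 ± 0.29 in WT (adjusted p = 1.5e-14). IL-4 gave 0.46 ± 0.43 in KO (edgeR, adjusted p = 0.392) and 1.59 ± 0.52 in WT (adjusted p = 0.0105). The WT call with IL-4 was lost without WT IL-4 replicate 3 (1.18, adjusted p = 0.0782), and the KO value was 1.83 (edgeR, adjusted p = 0.00582) without KO 5 and 6 and -0.78 (adjusted p = 0.205) without KO 7 and 8. After IL-4 Clic5 held 0.0613, 0.207, 0.34 and 0.268 CPM in KO and 0.16, 0.252, 0.343 and 0.0999 CPM in WT.

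**Figure D2:**
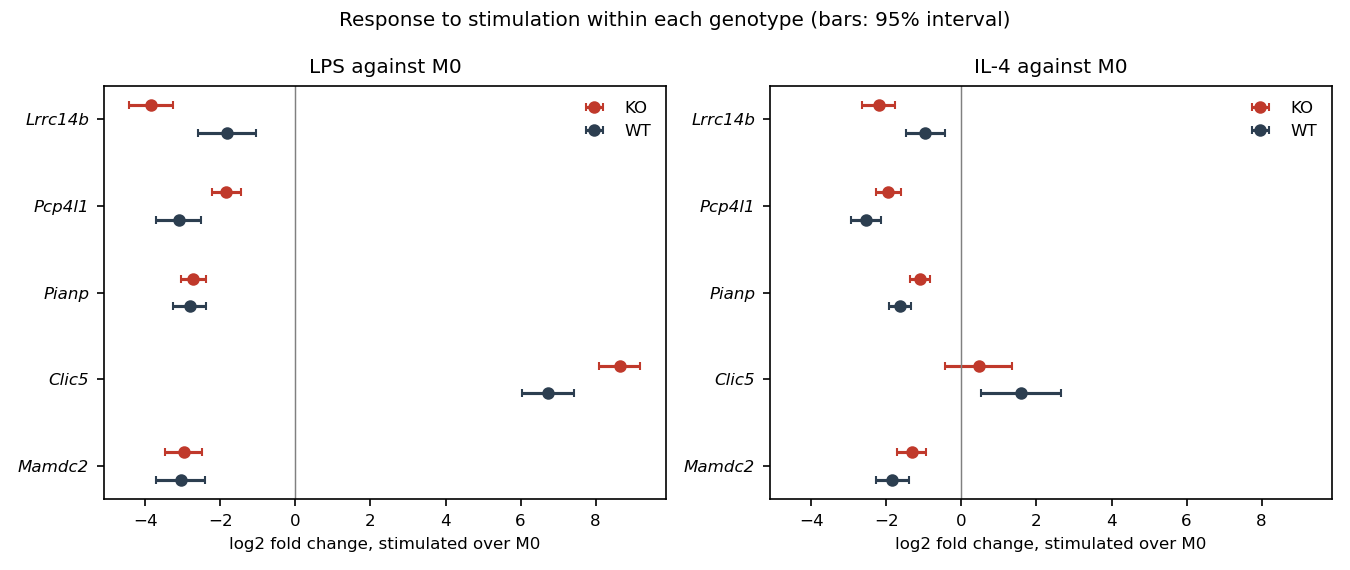
Log2 fold change over M0 within each genotype, for LPS (left) and IL-4 (right), with points for edgeR estimates and bars for 95% intervals. With LPS, Clic5 lies at 8.64 in KO and 6.73 in WT, and the other genes lie between -3.85 and -1.83. With IL-4 the genes other than Clic5 lie between -2.55 and -0.96.

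Taken by count, LPS called 1 of the 5 genes higher and 4 lower in KO and the same split in WT, by edgeR's quasi-likelihood test at an adjusted p under 0.05. Over all 14693 genes, 31.2% were called higher and 36% lower in KO, and 29.4% higher and 28.3% lower in WT. IL-4 lowered 4 of the 5 in KO and 4 of the 5 in WT, where 25.2% and 29.3% of all genes were called lower. Clic5 was the fifth gene called in WT, in a contrast that called 30.9% of genes higher. LPS set against IL-4 called 4 of the 5 in KO (1 higher, 3 lower) and 3 in WT (1 higher, 2 lower), beside 67.8% and 62.9% of all genes in either direction. With only the 2 groups in the fit, Clic5 did not pass the filter on low counts for LPS or IL-4 against M0 in WT, so 4 of the 5 were called in each. Within a genotype, the LPS and IL-4 contrasts share their M0 libraries, and the KO and WT libraries are those on which the genes were chosen.

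The KO response minus the WT response is described without a test, because it holds the contrast that chose the genes. For LPS it was -2.02 ± 0.50 (SE, log2) in Lrrc14b, 1.28 ± 0.34 in Pcp4l1, 0.095 ± 0.26 in Pianp, 0.076 ± 0.39 in Mamdc2 and 1.90 ± 0.67 in Clic5. For IL-4 it was -1.25 ± 0.33 in Lrrc14b, 0.60 ± 0.26 in Pcp4l1, 0.52 ± 0.19 in Pianp, 0.51 ± 0.28 in Mamdc2 and -1.13 ± 0.69 in Clic5. The fall of Lrrc14b was larger in KO and that of Pcp4l1 smaller in KO under both stimuli, while the LPS values of Pianp and Mamdc2 were within their errors. The size of the Lrrc14b value for LPS rests on WT LPS 3 and 4: it was -2.76 without the first and -0.27 without the second. Without KO 7 and 8 the Pcp4l1 value for IL-4 was 0.29 and the Pianp value for LPS 0.32. The Clic5 value for IL-4 was -2.36 without KO 7 and 8 and 0.26 without KO 5 and 6.

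In CPM per kilobase of exon, the scale on which genes can be set beside each other, resting KO cells held 23.9 ± 2.83 (SD, n = 4) for Pcp4l1, 6.98 ± 1.17 for Pianp, 4.12 ± 1.02 for Mamdc2, 2.34 ± 0.13 for Lrrc14b and 0.0172 ± 0.0099 for Clic5. Resting WT cells held 5.08 ± 0.938, 2.53 ± 0.264, 1.65 ± 0.0844, 0.295 ± 0.0727 and 0.00798 ± 0.0036 in the same gene order. In the deep KO LPS libraries Clic5 reached 7.27 ± 1.12 (SD, n = 3), beside 6.72 ± 1.12 for Pcp4l1. In the order of levels over the 6 groups, Lrrc14b, Pcp4l1, Pianp and Mamdc2 each had KO M0 first, without overlapping the next group. For Pcp4l1 the ranges of KO LPS, KO IL-4 and WT M0 overlapped each other in turn, and for Mamdc2 WT M0 (5.69 ± 0.292 CPM) and KO IL-4 (5.67 ± 1.96 CPM) were not separated. For Clic5, KO IL-4, WT IL-4, KO M0 and WT M0 overlapped in turn below both LPS groups.

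Libraries that share a label number were compared within each genotype, a question the choice of genes did not use. In KO, 3 of the 5 genes differed between label numbers by edgeR's quasi-likelihood F test: Mamdc2 (adjusted p = 0.00094), Pcp4l1 (adjusted p = 0.00564) and Pianp (adjusted p = 0.0219). Over all genes, 16% were called in that test. Lrrc14b (adjusted p = 0.446) and Clic5 (adjusted p = 0.426) were not called, and the Pianp call was lost without number 5 (adjusted p = 0.15) or number 7 (adjusted p = 0.0856). In M0 and in IL-4, KO 7 and 8 read above KO 5 and 6 in all 3 genes called. In WT edgeR called 0 of the 5 genes, with adjusted p between 0.149 and 0.95 and 1 of 5 at an unadjusted p under 0.05, beside 1.63% of all genes called.

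Stromal, endothelial and osteoblast markers moved with the genotype and with the KO label numbers. The summed level of 10 endothelial markers was 45.7, 49.1, 105 and 111 CPM in KO M0 libraries 5 to 8, against 27.1 to 30.7 CPM in WT M0, with 7 of 10 called higher in KO (edgeR). In IL-4 it was 82.7, 87.3, 117 and 109 CPM for KO, against 52.3 to 63.1 CPM for WT (5 of 10 higher), and in deep LPS libraries 94.2 to 122 CPM for KO, against 51.9 to 54.7 CPM for WT (4 of 10 higher). Among 10 stromal markers the collagen genes Col1a1, Col1a2 and Col3a1 reached the highest levels, up to 9569, 6528 and 3543 CPM in deep libraries. The summed level of the 10 was 14996 to 19785 CPM in KO M0 and 10514 to 12268 CPM in WT M0 (7 of 10 higher). It was 18996 to 19074 CPM in KO LPS and 14125 to 14451 CPM in WT LPS (6 of 10 higher), and 11106 to 14654 CPM in KO IL-4 and 7604 to 8185 CPM in WT IL-4 (8 of 10 higher). Within a genotype, the stromal sums of the IL-4 libraries lay below those of the M0 libraries in KO and in WT, and those of the deep LPS libraries lay within the M0 range in KO and above it in WT. Of 6 osteoblast markers, 5, 2 and 4 were called higher and 1 in each state lower in KO in M0, LPS and IL-4 (edgeR). Their summed level was lower in KO, at 2309 to 2609 CPM in KO M0 and 3081 to 3506 CPM in WT M0, 3317 to 3470 CPM in deep KO LPS and 3841 to 3913 CPM in deep WT LPS, and 2868 to 3434 CPM in KO IL-4 and 3811 to 4100 CPM in WT IL-4. In KO M0 and KO IL-4 the sums of numbers 7 and 8 lay above those of 5 and 6. Most of the level was Spp1, the secreted matrix protein osteopontin, which macrophages also make and which was the marker called lower (2023 CPM in KO M0 and 3064 CPM in WT M0 on average). Summed neuronal markers were 78.2 to 93.1 CPM in KO M0 and 83.8 to 106 CPM in WT M0, and summed muscle markers were 6.58 to 10.8 CPM in KO M0 and 6.83 to 9.74 CPM in WT M0, so both overlapped. In IL-4 both sums overlapped too, and in deep LPS libraries the neuronal sums overlapped while the muscle sums were 5.30 to 7.43 CPM in KO and 4.47 to 4.75 CPM in WT. Among these, Myod1 was at 0 counts in every deep library, and Ckm, Myh6 and Snap25 had at most 2 counts. The neutrophil, T and NK cell, B cell, dendritic cell, mast cell and basophil, and megakaryocyte and erythroid lists were short. They had 5, 1, 1, 3, 3 and 2 genes that passed the filter, in that order. At most 2 genes of a list were called in a state, beside 22.3%, 30.9% and 36.1% of all genes in M0, LPS and IL-4. In M0 these included 2 higher for neutrophils and 1 higher and 1 lower for mast cells and basophils. The only B cell gene was lower in M0 and IL-4. So few genes do not show whether these cell types changed. The part of other cell types in the values of the 5 genes was not tested, and in bulk RNA fewer cells of a type and less RNA per cell cannot be told apart.

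**Figure D3:**
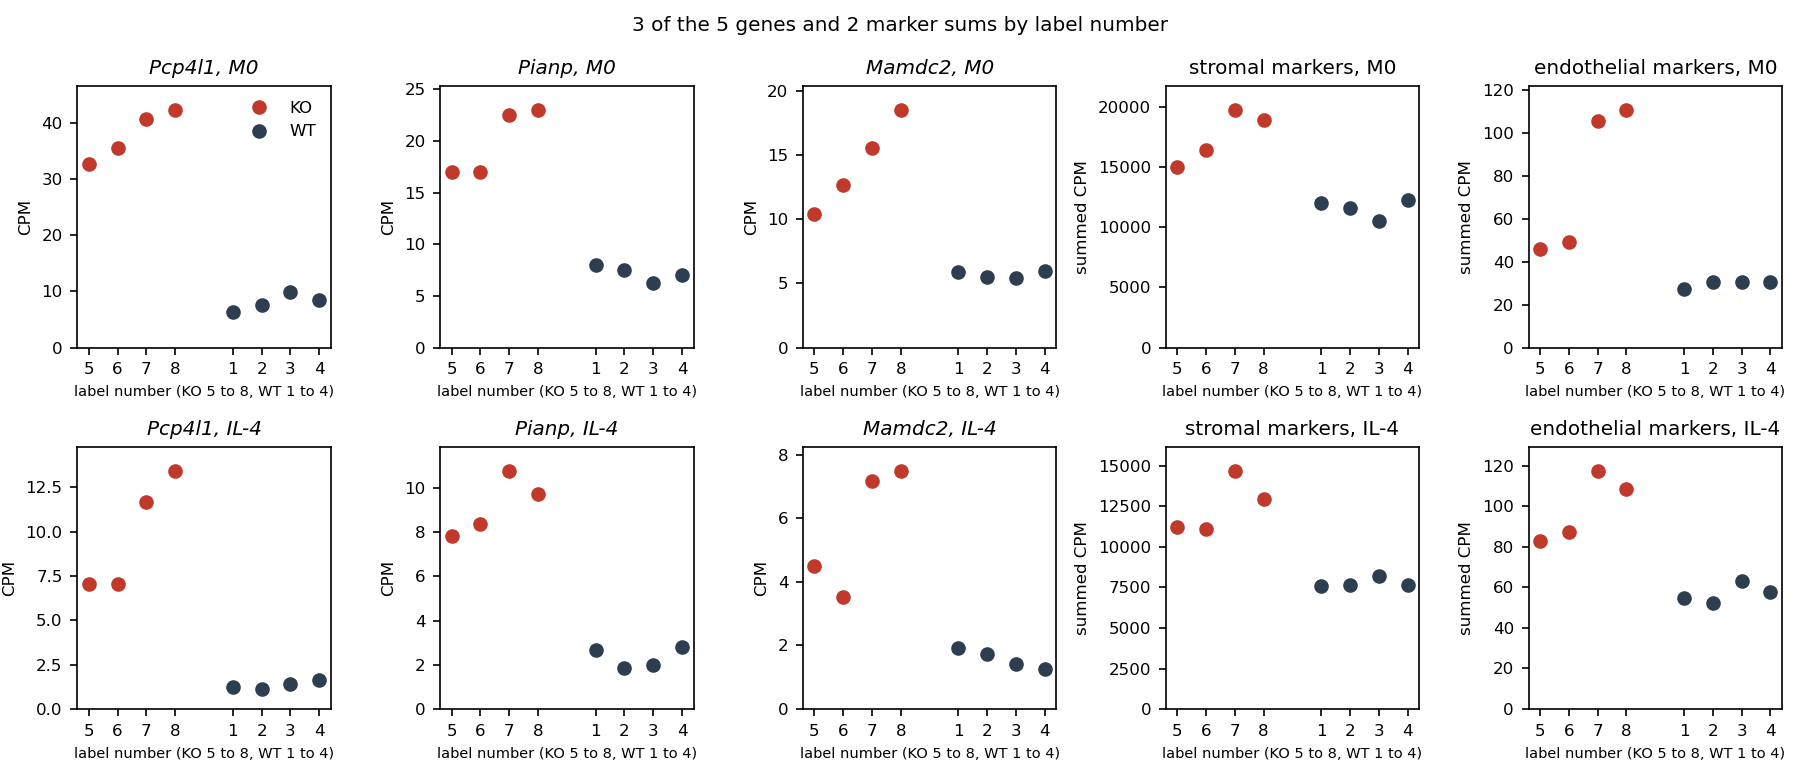
CPM of Pcp4l1, Pianp and Mamdc2 and summed CPM of 10 stromal and 10 endothelial markers in each M0 library (top) and IL-4 library (bottom), by label number, with KO 5 to 8 left of WT 1 to 4. In KO, numbers 7 and 8 lie above numbers 5 and 6 in every panel, and all WT values lie below all KO values.

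Neighbours of the 5 genes in the genome had smaller KO over WT differences than the genes they flank, except beside Clic5 in IL-4. There Clic5 differed by -0.016, and Runx2 and Enpp4 by 0.50 and 0.58. The 5 genes were picked for large differences and the neighbours were not, so smaller values in the neighbours were likely from the start. Of the 10 nearest expressed genes, 1 on each side of each gene in the RefSeq table, edgeR called 2 higher in KO in M0, 1 in LPS and 2 in IL-4, where 1 was also lower. The shares called over all genes were 22.3%, 30.9% and 36.1%. No neighbour had an absolute log2 difference above 0.54 in M0, 0.47 in LPS or 0.58 in IL-4. Both genes beside Clic5 were among those called. Runx2, the transcription factor of bone and cartilage formation, differed by 0.54 ± 0.088 in M0 (edgeR, adjusted p = 9.2e-05) and 0.50 in IL-4 (adjusted p = 0.000109), with 0.084 in LPS (adjusted p = 0.631), the state in which Clic5 differed most. Runx2 is also among the osteoblast markers described above. Enpp4, an ectonucleotidase gene, differed by 0.41 in M0 (edgeR, adjusted p = 0.0142), 0.47 in LPS (adjusted p = 0.00927) and 0.58 in IL-4 (adjusted p = 0.000765). Its M0 call was lost without WT M0 3 (adjusted p = 0.0669) or KO M0 6 (adjusted p = 0.0788) and its LPS call without WT LPS 3 (adjusted p = 0.0563). Smc5, beside Mamdc2, differed by -0.16 in IL-4 (edgeR, adjusted p = 0.0384), a call lost under DESeq2 (adjusted p = 0.219).

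**Figure D4:**
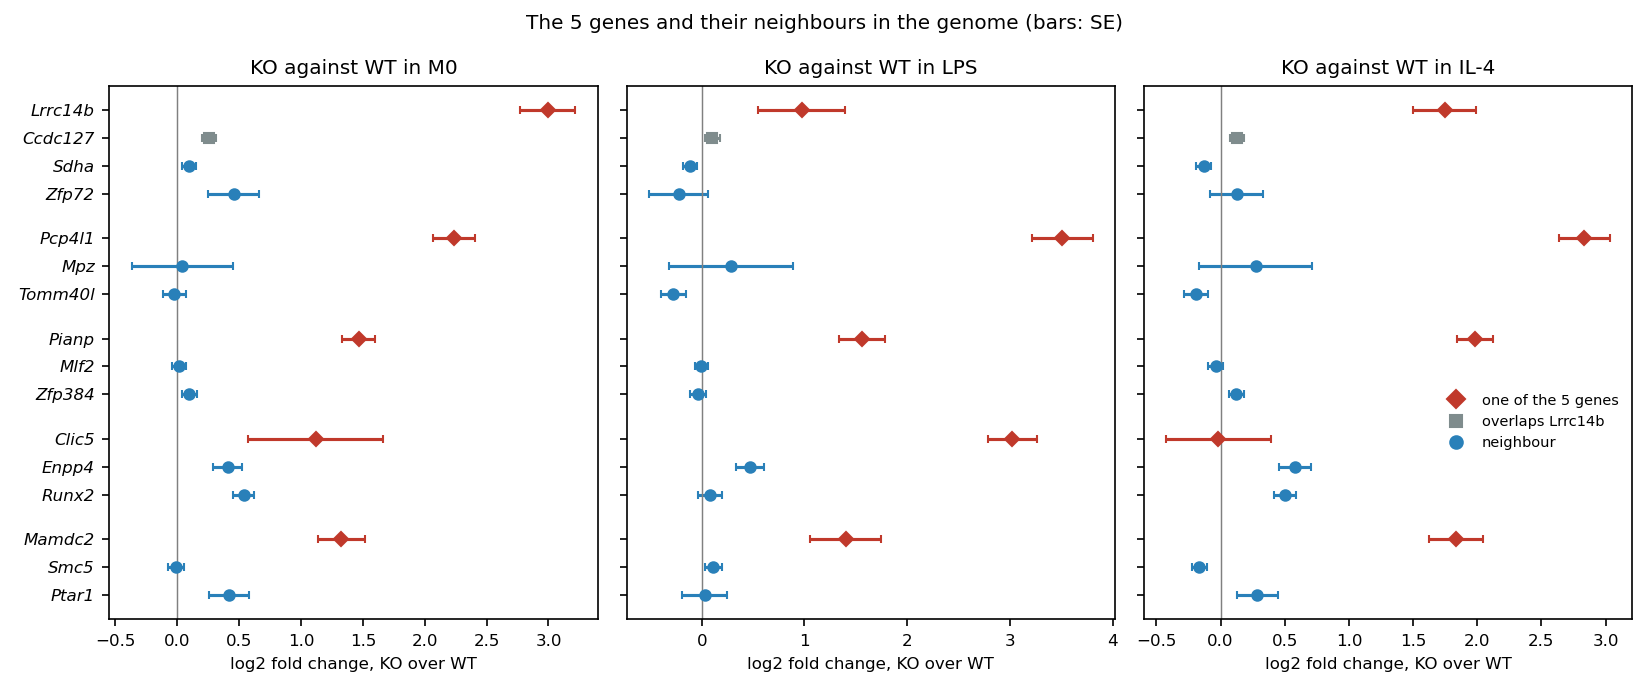
Log2 fold change of KO over WT with its SE in M0, LPS and IL-4, for the 5 genes (diamonds), Ccdc127 (square) and the nearest expressed neighbour on each side (circles). The 5 genes reach 2.99 in M0 and 3.51 in LPS, and the neighbours stay within 0.58.

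Genes related to the 5 by function or family were counted in lists, which were chosen with results of these libraries known. Over all genes, 22.3%, 30.9% and 36.1% were called in either direction in M0, LPS and IL-4, against which each list's counts are to be read. The PILR and GABA-B list, around the known partners of PIANP, had 9 of 10 genes measured. In KO against WT, edgeR called 2 higher and 5 lower in M0. LPS had 1 higher and 3 lower, while IL-4 had 3 of each. Its median log2 difference was -0.18, 0.0060 and -0.14, beside all-gene medians of 0.015, 0.012 and 0.0065.

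Pilra, the inhibitory receptor that PIANP binds, was lower in KO in each state, opposite to Pianp. It held 12.9, 11.5, 9.88 and 10.3 CPM in KO M0, against 25.8, 22.6, 19.9 and 19 CPM in WT M0 (log2 difference -0.97 ± 0.11, edgeR quasi-likelihood, adjusted p = 4.4e-07). The deep LPS libraries held 126, 129 and 103 CPM for KO, against 221 and 237 CPM for WT (-0.92 ± 0.12, edgeR, adjusted p = 3.05e-06), and in IL-4 the difference was -0.69 ± 0.13 (adjusted p = 0.000146). Its activating relatives Pilrb1 (-1.09 ± 0.26, edgeR, adjusted p = 0.00297) and Pilrb2 (-0.93 ± 0.23, adjusted p = 0.00443) were also lower in M0. In KO M0 libraries 5 to 8 Pilrb1 held 1.17, 1.24, 0.635 and 0.7 CPM, against 1.83 to 2.34 CPM in WT M0. Pilrb2 held 2.28, 2.54, 0.903 and 1.06 CPM, against 2.72 to 4.27 CPM in WT M0. For both genes KO 7 and 8 lay below KO 5 and 6. The PILR genes are close in sequence, so reads of 1 may have been assigned to another or left out of the counts as not uniquely aligned. Gabbr2, a GABA-B receptor subunit, held 0.989, 0.887, 1.48 and 1.81 CPM in KO M0, against 0.409, 0.111, 0.352 and 0.254 CPM in WT M0 (2.17 ± 0.36, edgeR, adjusted p = 8.74e-05). In IL-4 it held 0.47 to 0.766 CPM for KO, against 0.0143 to 0.114 CPM for WT (3.46 ± 0.45, edgeR, adjusted p = 3.07e-06), and at most 2 counts per library in LPS.

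**Figure D5:**
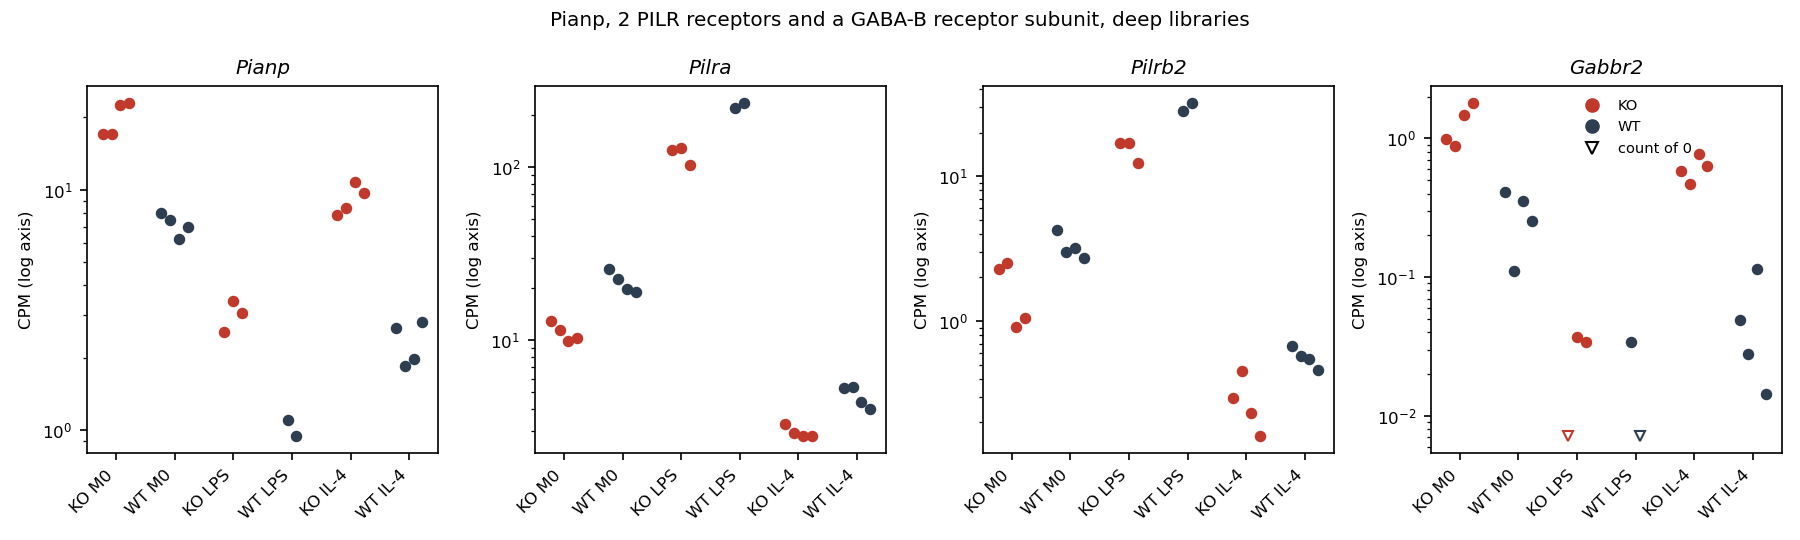
CPM on a log axis in the deep libraries, by group, for Pianp, the PILR receptors Pilra and Pilrb2 and the GABA-B receptor subunit Gabbr2, with open triangles for counts of 0. Pianp and Gabbr2 lie higher in KO M0 than in WT M0, and Pilra lies lower in KO in all 3 states (9.88 to 12.9 CPM in KO M0, 19 to 25.8 CPM in WT M0).

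The list of LRRC14 and the IkB kinase complex, named for the relative of Lrrc14b that binds this kinase in human cells, had 5 of 5 genes measured, of which 3, 1 and 3 were called lower in KO in M0, LPS and IL-4. The median log2 difference was -0.28, 0.016 and -0.22. Lrrc14 itself was lower in each state, at -0.32 ± 0.072 in M0 (edgeR, adjusted p = 0.00261), -0.66 ± 0.093 in LPS (adjusted p = 8.81e-06) and -0.45 ± 0.073 in IL-4 (adjusted p = 4.36e-05), against the direction of Lrrc14b. DESeq2 did not call the M0 differences of Lrrc14 (adjusted p = 0.225) or Ikbkg (adjusted p = 0.0566). Nfkbia, the IkB alpha inhibitor, was lower in M0 (-0.62 ± 0.077, edgeR, adjusted p = 2.3e-06) and in IL-4 (-0.38 ± 0.077, adjusted p = 0.000489), as was Ikbkg, the regulatory kinase subunit (-0.28 ± 0.070 and adjusted p = 0.00601 in M0). In LPS, Ikbkg was called higher without KO LPS 7 (0.21, edgeR, adjusted p = 0.0459) or KO LPS 8 (0.27, adjusted p = 0.0261), and Ikbkb, a catalytic subunit, was called lower without KO LPS 8 (-0.22, adjusted p = 0.00573).

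Around Clic5, 3 of 4 other CLIC genes passed the filter and 1 was called. Clic4 was higher in KO after LPS, at 1578, 1575 and 1315 CPM in deep KO libraries, against 941 and 969 CPM in deep WT libraries (0.67 ± 0.084, edgeR, adjusted p = 1.62e-06), and not in M0 (0.18, adjusted p = 0.103) or IL-4 (-0.014, adjusted p = 0.911). In M0 Clic4 was called under RLE size factors (0.19, edgeR, adjusted p = 0.0476) and with only the 2 groups in the fit (0.17, adjusted p = 0.0332). The median log2 difference of the family was 0.18, -0.016 and -0.014 in M0, LPS and IL-4. Of 8 measured genes of proteins that act with CLIC5, 1 was lower in each state, and 2, 2 and 3 were higher in M0, LPS and IL-4, with medians of 0.056, 0.14 and 0.097. That is 3, 3 and 4 of 8 called in either direction, to be read beside the shares over all genes given with the first list. Ezr, which encodes the membrane-to-actin linker ezrin, was higher in LPS (0.71 ± 0.096, edgeR, adjusted p = 4.29e-06) and in IL-4 (0.29 ± 0.075, adjusted p = 0.00407). Rdx, its relative radixin, was higher in LPS (0.43 ± 0.086, edgeR, adjusted p = 0.00047). Tprn, which encodes the stereocilia base protein taperin, was lower in each state, most in LPS (-0.70 ± 0.13, edgeR, adjusted p = 0.000175), although DESeq2 did not call its M0 difference (adjusted p = 0.135). The M0 count of 3 was 1 without WT M0 4, KO M0 7 or KO M0 8, and the IL-4 count of 4 was 2 without KO IL-4 7 or 8.

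Around Pcp4l1, the list of PCP4 relatives had 3 of 3 genes measured, of which 1 was called, with medians of 0.59, 0.47 and 0.75 in M0, LPS and IL-4. Pcp4 held 41, 22 and 26 counts in the deep KO LPS libraries and 1 count in the shallow one, against 0 and 2 counts in the deep WT LPS libraries (edgeR, adjusted p = 0.00121), and 0 counts in all M0 libraries. Of 15 calmodulin and kinase genes, 5 were higher in M0 and in IL-4, whereas LPS gave 2 higher and 4 lower, with medians of 0.049, 0.083 and 0.11. That is 5, 6 and 5 of 15 called, beside those same shares. Camk1, a calmodulin-dependent kinase, was among those higher in each state (0.21, 0.41 and 0.32, edgeR, adjusted p = 0.0168, 0.000387 and 0.000362). The M0 call of Camk1 was lost without WT M0 1 (adjusted p = 0.064) or KO M0 5 (adjusted p = 0.0823). The list's M0 count of 5 was 1 to 4 when any of the libraries was left out, its LPS count was 2 without WT LPS 3, and its IL-4 count was 3 without WT IL-4 2 or 4.

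Around Mamdc2, 9 of 15 other MAM domain genes passed the filter, of which 4, 2 and 5 were called higher in KO in M0, LPS and IL-4, with medians of 0.29, 0.14 and 0.32. Mdga1, a neuronal adhesion gene, was higher in M0 (0.50 ± 0.085, edgeR, adjusted p = 0.000154) and in IL-4 (0.56 ± 0.087, adjusted p = 2.41e-05), and the receptor phosphatase gene Ptprm in IL-4 (0.57 ± 0.077, adjusted p = 4.18e-06). The M0 count was 1 without WT M0 2 or KO M0 7 and 2 without WT M0 3, and the LPS count was 1 without WT LPS 3 or WT LPS 4. Of 14 genes of proteoglycan cores, 6, 6 and 7 were higher in M0, LPS and IL-4, and 1 in M0 and 2 in IL-4 were lower, with medians of 0.28, 0.24 and 0.40. Gpc1, a cell surface glypican, was higher in M0 (0.46 ± 0.059, edgeR, adjusted p = 3.39e-06), Fmod in M0 (0.46 ± 0.078, adjusted p = 0.000135) and IL-4 (0.55 ± 0.078, adjusted p = 8.05e-06), and Ogn and Sdc2 in LPS (0.58 ± 0.12, adjusted p = 0.000524, and 0.53 ± 0.12, adjusted p = 0.00103). The LPS count was 3 without KO LPS 5 or KO LPS 6. Lum and Dcn of this list are also in the stromal marker list, whose summed level was higher in KO in all 3 states.

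Across the 21 deep libraries, Lrrc14b, Pcp4l1, Pianp and Mamdc2 correlated with each other at Pearson r between 0.83 and 0.98 on log2 CPM, and Clic5 correlated with them at -0.16 to -0.59. These libraries share genotype and state, so the values describe the pattern over groups. The genes were also picked for large KO over WT differences, so part of these correlations was set by that choice. Pianp and Mamdc2 were each the other's closest gene of all 14693 (r = 0.98), though not by Spearman's rho or over all 24 libraries. Of the 15 closest genes named here, 2 were also among the closest 3 by Spearman's rho and 1 over all 24 libraries, so the names depend on the measure. The next closest to Pianp were Adcy3 and BC021767 (0.97 each), and to Mamdc2 Vipr1 and Msrb3 (0.97 each). The closest to Pcp4l1 were Cd5l (0.98), Prkcdbp (0.97) and Cdkn1c (0.96), and to Lrrc14b they were Atxn10 (0.94), Padi2 (0.93) and Ndnf (0.92). Cd5l, a secreted macrophage protein gene, averaged 147 ± 4.02 CPM in KO M0 and 45.9 ± 8.49 CPM in WT M0 (SD, n = 4 each). Fas, Rab22a and Stau1 were closest to Clic5 (0.98 each), and Fas, the death receptor gene, averaged 54.3 ± 1.73 CPM in deep KO LPS libraries (SD, n = 3) and 26.9 ± 0.545 CPM in deep WT LPS libraries (n = 2).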

How the data were processed

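TopHat2 2.1.0, HTSeq 0.9.1 and the build mm10 (GRCm38) are named in the submitters' processing notes. The deposited values are raw counts per gene symbol. The annotation and strand option behind them were not given in the sources used here. Of each file, 24421 gene rows were used and 5 summary lines were left out.

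Counts of all 24 libraries were fitted together with edgeR 4.0.16 under R 4.3.3, with TMM factors, filterByExpr by group (14693 genes kept), 1 coefficient for each group and 18 residual degrees of freedom. A gene was called where the quasi-likelihood test gave a Benjamini-Hochberg adjusted p below 0.05 across all 14693 genes. CPM uses edgeR's effective library sizes. Errors are SE for log2 fold changes and SD for CPM. Each SE was derived from the quasi-likelihood test, as the absolute log2 fold change divided by the square root of its F statistic. The 95% intervals were built on these approximate errors. The 3-count limits and 95% intervals cover counting or fit error only. Label numbers were tested within each genotype with state as a covariate. In KO the 4 same-numbered M0 and IL-4 libraries deviated together (correlations of 0.31 to 0.41). Numbers 5 and 6, and likewise 7 and 8, correlated with each other as closely (0.32 to 0.38), so these values do not pair single libraries. The replicate block changed no call of the 5 genes in that comparison. Exon lengths and overlaps come from GENCODE vM21, and positions and promoters from RefSeq (GRCm38.p6), in which 23204 symbols and all 5 genes matched. Similarity is Pearson's r of log2 CPM (prior count 2) over the libraries above 1e+06 gene counts. The script was tested on simulated counts. Alternatives were DESeq2 1.42.0, RLE size factors, no filter, a replicate block, only the groups compared, and libraries left out.

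Named genes are the 5 genes, their nearest expressed neighbours, the 3 most similar genes to each, up to 3 called genes per list and contrast with the smallest adjusted p, all genes of lists of 5 or fewer, and Ogt. Not every gene that meets this rule is printed. Ccdc127 was named after the overlap was seen. The genes and lists were chosen with earlier results of these data known.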

Additional observations from a re-analysis of the deposited data

Results flagged for a closer look

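Lrrc14b in the KO LPS library 7 read 5.98 CPM, far above the 0.374 to 0.545 CPM of the other KO LPS libraries. The gap to the nearest of them, divided by the range of the group, was above Dixon's 95% critical value for 4 libraries. The value is 1 count in a library whose 3-count limit is 17.9 CPM. Of 30 groups of values examined, 1 was flagged, and chance flags about 1 in 20.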

How the results depend on the processing

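The calls of the 5 genes in the 6 stimulation contrasts kept their direction and side of the threshold under RLE size factors, no filter and without the 3 shallow libraries, except that Lrrc14b with LPS against IL-4 in WT was called under RLE (adjusted p = 0.048). Without single libraries, that contrast was called without WT LPS 4 (-2.56), WT IL-4 1 (-1.01) or WT IL-4 3 (-0.99), and the other changes stand in the report. Pcp4l1 with LPS against IL-4 in KO changed sign without KO IL-4 5 (-0.14) or KO IL-4 6 (-0.13) and reached 0.23 without KO LPS 5, and Clic5 with IL-4 against M0 in KO changed sign without KO 7 and 8 (-0.78). The causes were not tested. DESeq2 called fewer genes overall: 4842 for IL-4 against M0 in KO (edgeR 7534), and for KO against WT 1438 in M0 (3279), 2663 in LPS (4534) and 2791 in IL-4 (5307). Among the related lists it called 0 of the CLIC5 partners, 2 of the calmodulin list and 1 of the LRRC14 list in M0, 0 of the PCP4 relatives and 3 of the calmodulin list in LPS, and 3 of the calmodulin list in IL-4. Leaving out single libraries gave 2999 to 4674 genes for KO against WT in LPS, lowest without WT LPS 4, and 35 to 1033 genes (main 229) for label numbers within WT, lowest without number 2 and highest without number 3. That test called 77 genes without the LPS libraries. The other counts over all genes stayed within 1.5 times the main count when single libraries were left out. Of the lists with 0 genes called, the CLIC family had 1 in IL-4 without WT IL-4 3 or KO IL-4 5, and the PCP4 relatives had 1 in IL-4 without WT IL-4 1 or KO IL-4 8.

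Label numbers were checked as a possible pairing across states within a genotype. Same-numbered libraries' deviations from their group means correlated over 0.1 in 7 of 24 pairs, and in all pairs of 1 comparison, IL-4 against M0 in KO. In the other comparisons at most 1 of 4 pairs passed, with correlations from -0.038 to 0.17, so there the numbers were not taken to pair the libraries. In 5 of 24 libraries the best match in each other state carried the same number. With a replicate block, the called genes among the 5 were 5, 5, 4, 5, 4 and 4 (LPS in KO, LPS in WT, IL-4 in KO, IL-4 in WT, LPS against IL-4 in KO and in WT). The last gained Pcp4l1 (-0.75, edgeR, adjusted p = 0.00356).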
